A study of Mus musculus with 12 samples.

Results

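The data described here are the response of Ikaros-deleted CD4 T cells to 24 hours of stimulation through CD3 and CD28. They come from 6 arrays out of the 12 of a mouse series, chosen by their labels: 3 of resting Cre+ cells (Cre+ 0h) and 3 of activated Cre+ cells (Cre+ 24h). The cells were CD4+ T cells from spleen with the genotype Lck-Cre+;Ikzf-/-, in which Cre recombinase removes the Ikaros gene Ikzf1 under the promoter of Lck, a gene of the T lineage. The activated cells met an antibody to CD3 fixed to the plate and an antibody to CD28 in solution, and the resting cells were left untreated. The other 6 arrays held cells labelled Lck-Cre-;Ikzf+/+ under the same conditions, 3 at each time, and are used here for comparison. No group carried Cre with intact Ikaros, and none was kept in culture for 24 hours without the antibodies. An effect of Cre cannot be told apart from that of the deletion, nor an effect of culture from that of activation.

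T cells at rest circulate in a quiescent state. Engagement of the T cell receptor, of which CD3 is the signalling part, together with the costimulatory receptor CD28 sets off calcium, MAP kinase and NF-kappaB signals. These switch on transcription factors and cytokine genes within hours, and then growth, metabolism and cell division. Ikaros is a zinc finger DNA-binding protein of lymphocytes that is known both as a repressor and as an activator of transcription, and it has been linked to the threshold of T cell activation and to the silencing of cytokine genes.

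Each value is a log2 expression level from RMA, a method that corrects, normalises and summarises the probes of an array, so a difference of 1 is a 2-fold difference of readings. Changes are therefore relative to the rest of the array, and a fold against a reading near the array medians (4.07 to 4.21 over all 12 arrays) compares readings rather than amounts of transcript. Of 25206 probe sets, 23185 mapped to a single gene and were tested. Differences at 24 h against 0 h were tested with limma, a linear model with a shared estimate of variance. The tests were two-sided, and a gene is said to have passed where its p, adjusted over all genes by Benjamini-Hochberg, was under 0.05. Errors of differences are the standard errors (SE) of that model, with 3 arrays in each group. The labels do not state that replicates were separate animals, so the p-values measure the spread between these samples.

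Activation changed the expression of 4795 genes in Cre+ cells, 20.7% of those tested. Of these, 2346 (10.1%) rose and 2449 (10.6%) fell. A change of at least 2-fold was seen for 1683 of them (7.26%), with 805 higher (3.47%) and 878 lower (3.79%). At least 4-fold changes numbered 129 upward and 181 downward, and at least 8-fold changes 32 and 29. The 3 readings at 24 h lay beyond all 3 readings at 0 h for 2334 of the rising and 2439 of the falling genes. Over all genes tested, 36.7% had groups that did not overlap. The median change over all genes was -0.02. Another 188 genes had a mean change of at least 2-fold and did not pass.

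The activated arrays were less alike than the resting ones. Between resting arrays, 81 to 218 genes lay at least 2-fold apart, against 347, 356 and 1213 between pairs of activated arrays. Array 3 at 24 h was farthest from the resting arrays, with 3005 to 3048 genes at least 2-fold away, and array 2 nearest, with 1296 to 1401. Among the 805 genes that rose at least 2-fold, the median change from the resting mean was 1.47 on array 1, 1.01 on array 2 and 1.59 on array 3. For the 878 genes that fell, the medians were -1.48, -1.23 and -1.60. The third activated array of the Cre- cells departed from its group together with that of the Cre+ cells: their deviations from the group means correlated across genes at 0.73. Without array 2 the count of genes passing was 5472. It was 3148 without array 1 and 3175 without array 3 at 24 h, and the fall is more than 1.5-fold in both cases.

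CD4 T cell markers were strong at rest and somewhat lower after activation, and B cell transcripts were present in every resting sample. Of 10 markers of CD4 T cells, 7 fell and none rose, with a median change of -0.55. Cd4 averaged 11.53 at rest and 11.03 at 24 h, a fall that did not pass without any 1 of the Cre+ arrays other than activated array 2, and Cd3e averaged 11.06 and 10.46. The CD8 gene Cd8a read 6.44 and 6.38. The mean of 14 measured B cell markers was 8.58 to 8.70 on the resting arrays and 7.21, 6.44 and 7.73 on activated arrays 1, 2 and 3, and 11 of the 14 fell (Fcer2a passed upward without activated array 2). Among 15 myeloid and dendritic cell markers, 11 fell, and their mean went from between 5.49 and 6.29 to between 3.98 and 4.21. NK cell markers showed 2 falls among 6 (1 without resting array 1 or 2 or activated array 1), and the 1 that rose, Eomes, is also a T cell factor. Of 4 markers of gamma delta and innate-like T cells, 3 fell, and none of 6 erythroid and platelet markers passed. In samples of whole populations such as these, fewer cells of a type and less RNA per cell cannot be told apart. By sex-linked genes, 2 of the 3 resting and 1 of the 3 activated Cre+ samples were from females, and with sex as a covariate 4127 genes passed. The activated female sample was array 2, and the samples numbered 1 were female at rest and male at 24 h. The part of sex in the pattern of array 2 cannot be told apart from that of the sample. The part of the other cell types in the results below was not tested. Their marker levels are given beside the genes they bear on.

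Cytokine genes were among the largest increases, with 4 of the 20 ranked. Of 24 measured, 14 rose and 1 fell, and the median change was 1.09 against -0.02 over all genes. Il2, the growth factor of activated T cells, read 2.91, 2.88 and 2.71 at 0 h and 9.72, 8.88 and 9.66 at 24 h. Its rise of 6.59 ± 0.28 (SE), or 96.2-fold, was the largest under the rule used to rank genes, which asks for groups that do not overlap (adjusted p = 2.14e-07). Ifng, the macrophage-activating cytokine of Th1 cells, went from 3.70, 3.82 and 3.42 to 8.86, 9.24 and 8.85. That is a rise of 5.34 ± 0.20, or 40.4-fold (adjusted p = 5.91e-08). For both genes the readings at 24 h lay more than 5 log2 units above every reading at 0 h.

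Il3 and Csf2, neighbouring genes for haematopoietic growth factors, also came on from readings below the array medians. Il3 read 2.93, 2.95 and 2.39 at rest and 8.02, 7.58 and 8.50 after activation, a rise of 5.27 ± 0.25 (38.7-fold, adjusted p = 2.93e-07). Csf2, which encodes GM-CSF, read 2.98, 2.59 and 2.69 and then 6.68, 5.96 and 7.79, a rise of 4.06 ± 0.34 (16.7-fold, adjusted p = 1.18e-05). All 3 activated readings of each gene were above all resting ones, and array 3 was the highest and array 2 the lowest for both.

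Promoters of these 4 genes are shown because they are textbook targets of receptor signals through NFAT, AP-1 and related factors. They also had the largest rises among the cytokine genes. The sequences are from RefSeq on build GRCm38.p6, written 5′ to 3′ on the strand of the gene, with 250 bases before and 50 after the annotated start. Capitals mark 3 motifs searched on both strands: GGAAAA, a core bound by NFAT, TGANTCA, the AP-1 site, and TGGGAA, a core bound by Ikaros.
Il2, chr3:37125905-37126204, minus strand: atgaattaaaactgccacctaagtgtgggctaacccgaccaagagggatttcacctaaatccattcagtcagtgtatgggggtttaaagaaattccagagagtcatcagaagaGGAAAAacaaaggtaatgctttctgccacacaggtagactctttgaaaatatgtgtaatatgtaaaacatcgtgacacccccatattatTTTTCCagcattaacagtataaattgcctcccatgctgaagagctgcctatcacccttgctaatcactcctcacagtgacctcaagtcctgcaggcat
Ifng, chr10:118440796-118441095, plus strand: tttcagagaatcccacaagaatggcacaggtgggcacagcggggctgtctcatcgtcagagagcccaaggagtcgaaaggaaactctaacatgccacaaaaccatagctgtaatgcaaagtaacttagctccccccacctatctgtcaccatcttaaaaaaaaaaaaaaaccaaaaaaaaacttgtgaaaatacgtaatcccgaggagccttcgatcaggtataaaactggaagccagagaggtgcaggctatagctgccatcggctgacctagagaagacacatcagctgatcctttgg
Il3, chr11:54267230-54267529, minus strand: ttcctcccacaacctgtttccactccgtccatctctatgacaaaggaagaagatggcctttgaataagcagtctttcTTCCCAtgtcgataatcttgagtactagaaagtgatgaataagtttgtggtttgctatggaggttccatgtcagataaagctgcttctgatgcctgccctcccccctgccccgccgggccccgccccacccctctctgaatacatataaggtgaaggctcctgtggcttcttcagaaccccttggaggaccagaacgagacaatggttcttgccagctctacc
Csf2, chr11:54249850-54250149, minus strand: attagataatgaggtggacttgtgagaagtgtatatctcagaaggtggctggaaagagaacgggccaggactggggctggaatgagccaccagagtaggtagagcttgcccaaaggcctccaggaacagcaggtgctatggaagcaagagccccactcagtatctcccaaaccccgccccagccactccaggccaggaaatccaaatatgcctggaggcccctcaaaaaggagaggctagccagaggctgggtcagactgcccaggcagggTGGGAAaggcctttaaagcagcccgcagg
The Il2 promoter held GGAAAA 2 times, 137 and 48 bases before the start. Il3 had TGGGAA once, 173 bases before the start, and Csf2 had it 21 bases after the start. No match was found in the Ifng window, which says only that these letters are not in it. The starts of Il3 and Csf2 are 17380 bases apart on chromosome 11.

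Promoters of responding genes held these short motifs at shares close to those of all promoters. Over all 32851 promoters of the table, 23.4% held GGAAAA, 7.81% TGANTCA and 25.6% TGGGAA, and over the 21141 promoters of tested genes 22.3%, 7.19% and 24.4%. Promoters of genes that rose at least 2-fold (767 promoters) held them in 21.5%, 6.78% and 25.6%. For genes that fell at least 2-fold (748 promoters) the shares were 22.1%, 7.49% and 22.7%. These are descriptions of letters in a window, not of binding.

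Other cytokines rose from higher or lower starting levels. Il13 and Il4, the linked Th2 cytokines, rose by 3.31 ± 0.18 and 2.22 ± 0.17. Lif, a relative of interleukin 6, went up by 3.05 ± 0.32 and Lta, which encodes lymphotoxin alpha, by 2.67 ± 0.13. Tnf was already read at 8.50 in resting cells and reached 10.42, a rise of 1.92 ± 0.12. Il21, a helper cytokine for B cells, spread widely at 24 h (5.71, 3.93 and 6.47), and its rise of 2.20 ± 0.55 (adjusted p = 0.0148) did not pass without resting array 2 or without activated array 1 or 3; it was 2.92 without activated array 2. The Th17 cytokine gene Il17a did not pass and had a mean of 2.85 at 24 h. Ebi3, a subunit of dimeric cytokines, rose by 1.30 ± 0.20 and Osm, a relative of Lif, by 0.56 ± 0.13. Il6 and Il10 passed upward from very dim readings, with means of 2.99 and 3.66 at 24 h, and Il10 did not pass without any 1 of the Cre+ arrays other than activated array 3. Il16, expressed by resting lymphocytes, was the member that fell, by 1.01 ± 0.12 on the log2 scale.

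**Figure D1:**
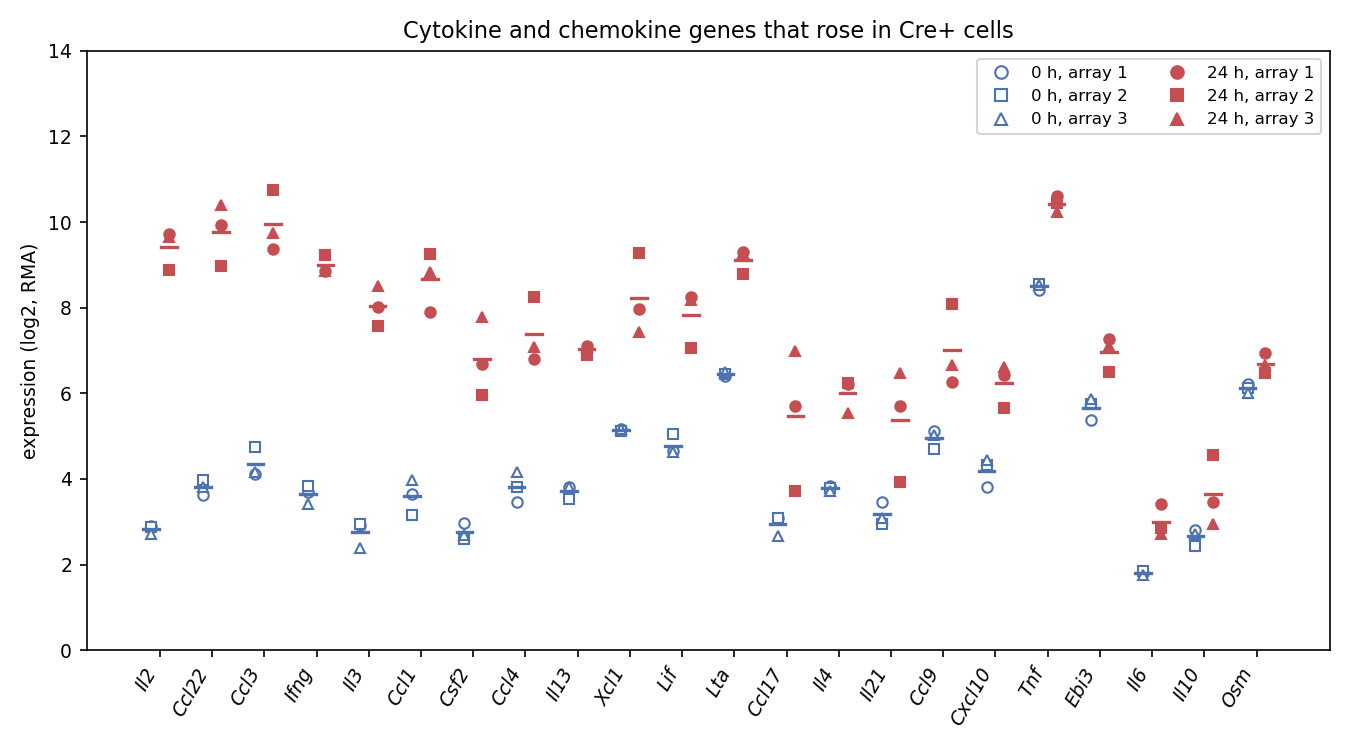
Expression (log2, RMA) of the 14 cytokine and 8 chemokine genes that rose in Cre+ cells, ordered by size of change; open blue symbols are the 3 resting arrays, filled red symbols the 3 activated arrays, and bars the group means. Il2 went from a mean of 2.83 to 9.42 and Ccl22 from 3.81 to 9.77, while Ccl17 and Il21 show activated array 2 close to the resting level.

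Chemokine ligand genes moved upward together with the cytokines: 8 of 13 rose and none fell, with a median change of 2.05. Ccl22, a ligand of CCR4, went from 3.62, 3.97 and 3.82 to 9.94, 8.97 and 10.41, a rise of 5.97 ± 0.33 (62.5-fold, adjusted p = 5.86e-07). Ccl3, an inflammatory chemokine, read 4.12, 4.74 and 4.15 and then 9.36, 10.75 and 9.75, a rise of 5.61 ± 0.30 (49.0-fold, adjusted p = 5.22e-07). Its neighbour Ccl4 rose by 3.56 ± 0.34 and Ccl1, the ligand of CCR8, by 5.07 ± 0.38. Activated array 2 was the highest for Ccl3, Ccl4, Ccl1 and Xcl1, and the lowest for Ccl22 and Ccl17. The B cell marker mean was also lowest on that array (6.44), and its part in the Ccl22 and Ccl17 readings was not tested. Ccl17 read 5.69, 3.73 and 7.00 at 24 h, and its rise of 2.53 ± 0.75 (adjusted p = 0.0323) did not pass without any 1 of the 3 resting arrays or without activated array 1 or 3. It was 3.40 without activated array 2 and 1.77 without array 3. Ccl5, a chemokine of memory and effector cells, read 8.21 at rest and 7.31 at 24 h and did not pass.

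Among TNF superfamily ligands, 5 of 11 rose and 1 fell (2 fell without activated array 2). These shares are 45.5% and 9.09%, against 10.1% and 10.6% of all genes. Tnfsf11, which encodes RANKL, rose by 2.46 ± 0.19 and the OX40 ligand gene Tnfsf4 by 2.51 ± 0.34. Fasl, the death ligand, increased by 1.37 ± 0.27. Tnfsf10, which encodes TRAIL and is known to respond to interferon, dropped by 1.03 ± 0.16 on the log2 scale.

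Surface markers of activation rose almost as a set. Of 16 measured, 14 passed upward and none downward, with a median change of 1.34, and the mean over the list was 7.65 to 7.72 on the resting arrays and 9.06 to 9.14 on the activated ones. Tnfrsf4, the costimulatory receptor OX40, read 8.08, 7.93 and 8.07 and then 10.27, 10.32 and 10.24, a 4.77-fold rise (adjusted p = 3.12e-07). Il2ra, the high-affinity chain of the interleukin 2 receptor CD25, read 8.81, 9.13 and 8.89 and then 10.95, 10.97 and 11.12, a 4.19-fold rise (adjusted p = 5.10e-07). These readings differed by less than 0.2 between the activated arrays, unlike those of most cytokines. Cd200, Tnfrsf9 (4-1BB), the transferrin receptor gene Tfrc and the early marker Cd69 rose by 2.48, 2.27, 2.21 and 1.37. Cd86, a costimulatory ligand that B cells and dendritic cells also carry, rose by 0.56 ± 0.14 (adjusted p = 0.0126) and did not pass without activated array 1. Ctla4 read 8.15, 9.10 and 7.74 at 24 h against 7.74 to 7.83 at rest and did not pass.

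Costimulatory and inhibitory receptors were mixed, with 10 of 20 higher and 3 lower. The inhibitory receptor gene Lag3 rose by 2.42 ± 0.37, Tnfrsf8 (CD30) by 2.40, and the PD-1 gene Pdcd1 by 0.96. Its ligands Cd274 and Pdcd1lg2 rose by 1.62 and 2.09. The 3 that fell were Cd27, a costimulatory receptor of resting T cells, at -1.30, Cd96 at -1.38 and Cd244a at -1.82. The last 2 are receptors shared with NK cells.

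In the interleukin 2 receptor pathway 11 of 18 genes rose. Stat5a, the transcription factor it activates, rose by 1.84 ± 0.10, with readings of 8.37 to 8.40 at rest and 10.41, 10.10 and 10.17 after activation (adjusted p = 5.86e-07). The feedback genes Cish, Socs1 and Socs2, which damp cytokine signals, rose by 2.38, 1.59 and 1.50. The survival kinase genes Pim1 and Pim2 rose by 1.77 and 2.25. Jak1 was the only member lower (-0.66 ± 0.19), a call that was lost in 5 of the 6 fits that left out 1 Cre+ array; it stayed without activated array 2.

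Transcription factors induced by the T cell receptor followed the same direction. Of 27, 19 rose and 2 fell, with a median change of 0.98. Bhlhe40, a repressor that T cells need for cytokine production, went from 6.72, 6.72 and 6.91 to 9.87, 9.68 and 9.97, a rise of 3.06 ± 0.10 (8.33-fold, adjusted p = 2.72e-08). Irf4, a factor that scales with receptor signal strength, went from 7.30, 7.54 and 7.59 to 10.47, 10.47 and 10.17, a rise of 2.90 ± 0.12 (7.45-fold, adjusted p = 1.41e-07). Neither gene had overlapping groups. The nuclear receptor genes Nr4a1, Nr4a2 and Nr4a3 rose by 1.50, 3.10 and 2.96, and the zinc finger factor genes Egr1, Egr2 and Egr3 by 0.67, 1.47 and 1.25. Myc, the regulator of growth, rose by 1.98 ± 0.22, and the NF-kappaB subunit genes Rel, Relb and Nfkb2 by 0.98, 0.76 and 1.47. Among AP-1 genes, Fosl1, Fosl2, Batf, Junb and Jund rose by 1.83, 1.39, 0.86, 0.51 and 0.52. Fosl2 did not pass without resting array 2 or 3 or activated array 1, nor Junb without array 1 of either time. The 2 that fell were Tox (-1.23 ± 0.24), a factor linked to exhaustion, and Ikzf2 (-1.17 ± 0.30), which encodes Helios. Ikzf2 did not pass without resting array 1 or 2 or activated array 1 or 3.

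Of 25 phosphatases and feedback genes that restrain the receptor pathway, 11 rose and 2 fell. Rgs16, a brake on G protein signals from chemokine receptors, went from 5.42, 5.30 and 5.88 to 9.43, 9.76 and 9.72, a rise of 4.10 ± 0.20 (17.2-fold, adjusted p = 3.61e-07). Spry1, which inhibits the MAP kinase pathway, rose by 2.85, the MAP kinase phosphatase genes Dusp4, Dusp5, Dusp14 and Dusp16 by 2.10, 2.17, 1.20 and 1.31, and the NF-kappaB inhibitors Tnfaip3 and Nfkbia by 1.11 and 0.64. Rgs2 fell by 2.03 ± 0.31, and Rgs10 had a change of -0.77 (adjusted p = 0.0451) that kept its call in only 1 of the fits without 1 Cre+ array, that without activated array 2.

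Of 19 genes of the T cell receptor complex and proximal signalling, 9 fell and 1 rose, with a median change of -0.54. Themis, an adaptor of the receptor, read 9.22, 9.04 and 9.06 at rest and 6.98, 7.38 and 7.03 at 24 h, a drop of 3.94-fold (adjusted p = 2.66e-06). Plcg1, the phospholipase that opens the calcium branch, fell by 1.03 ± 0.23 and Ubash3a, a negative regulator, by 0.79 ± 0.10. The CD3 chain genes Cd3d, Cd3e and Cd3g had changes of -0.80, -0.60 and -0.71; Cd3d did not pass without any 1 of the resting arrays or without activated array 3. The ubiquitin ligase gene Cblb, which limits activation without CD28, was the member that rose (1.09 ± 0.19).

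Genes of the naive, quiescent state were mostly lower. Of 22 measured, 9 passed downward and 1, Bach2, passed upward by 0.53 (2 passed upward without activated array 3), and the median change was -1.19. The downward count was 13 without activated array 2, 7 without any other single Cre+ array and 18 with array weights. The interleukin 7 receptor gene Il7r read 10.03, 9.91 and 9.93 at rest and 7.74, 8.10 and 7.93 at 24 h, a drop of 4.09-fold (adjusted p = 2.76e-05). Txnip, an inhibitor of glucose uptake, dropped from 11.24, 11.14 and 10.94 to 8.17, 9.43 and 8.16 (5.74-fold, adjusted p = 0.000895). For both genes every activated reading was more than 1.5 log2 units below every resting one. The quiescence factor gene Foxo1 fell by 1.28 ± 0.16, the receptor subunit gene Il6ra by 2.12 and Dapl1, a marker of naive T cells, by 2.37 ± 0.27. Klf2, which maintains exit-receptor expression in resting T cells, read 7.73, 8.73 and 6.15 at 24 h against 9.15 to 9.29 at rest and did not pass (adjusted p = 0.173). Across this list activated array 2 stayed nearest to the resting level, with a mean of 8.80, and array 3 was lowest, with 7.68, against 9.30 to 9.49 at rest.

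Homing receptors and integrins were mostly lower: 11 of 20 fell and 3 rose. Itga4 and Itgb7, which form the gut-homing integrin alpha4 beta7, fell by 1.80 ± 0.21 and 2.10 ± 0.47, and Ccr9, the gut-homing chemokine receptor, by 2.22 ± 0.30. S1pr1, the receptor for exit from lymphoid tissue, read 7.36, 8.54 and 5.92 at 24 h against 9.55 to 9.63 at rest. Its change of -2.31 ± 0.75 (adjusted p = 0.0499) did not pass without any 1 of the resting arrays or without activated array 1 or 3; it was -2.94 without array 2 and -1.63 without array 3. Cxcr4 showed the same spread (6.53, 7.75 and 5.04); its change was -2.35, or -3.01 without activated array 2 and -1.65 without array 3. It passed (adjusted p = 0.034), but not without resting array 1 or 2 or activated array 1 or 3. The genes that rose were Ccr8 (2.23 ± 0.17) and Ccr4 (1.32 ± 0.22), receptors for the rising ligands Ccl1 and Ccl22, and the integrin gene Itgav (0.47).

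Of 14 T helper lineage factors, 2 rose and 4 fell, against 10.1% and 10.6% of all genes, and 7 fell without activated array 2 and 9 with array weights. Tbx21, which encodes T-bet, the Th1 factor, went from 5.72, 5.88 and 5.94 to 8.22, 8.06 and 8.32, a 5.13-fold rise (adjusted p = 1.00e-06) with no overlap. Its relative Eomes rose by 2.57 ± 0.47, to 9.38, 6.90 and 8.97, and by 3.33 without activated array 2. Maf, Id3, Runx1 and the CD4 lineage factor gene Zbtb7b fell by 1.50, 1.18, 0.82 and 1.12. The Th2 factor gene Gata3 (8.65 and 8.59) and the regulatory T cell factor gene Foxp3 (9.66 and 9.11) did not pass. Ikzf1 itself read 10.66, 10.29 and 10.13 at rest and 10.14, 9.93 and 9.89 at 24 h and did not pass (adjusted p = 0.0661). Its probe set gave a strong reading in cells labelled as deleted, so it does not check the deletion, and which exons were removed is not given in the sources used here. Ikzf2 was the only member of the 5-gene Ikaros family that passed (2 passed without resting array 3).

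Cytotoxic genes did not move as a block, with 4 of 14 higher and 4 lower (2 lower without resting array 2 or 3). Each share is 28.6%, against 10.1% higher and 10.6% lower over all genes. Gzmb, which encodes granzyme B, went from 3.72, 3.45 and 4.05 to 8.48, 7.76 and 8.79, a rise of 4.60 ± 0.31 (24.3-fold, adjusted p = 2.66e-06). The serpin genes Serpinb9 and Serpinb6b, of which the former protects cells from granzyme B, rose by 2.46 and 1.96. Gzma, a marker of NK cells, read 4.67 at rest and 3.69 at 24 h and did not pass, and Ctsw, a protease of cytotoxic cells, fell by 1.25 ± 0.29.

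**Figure D2:**
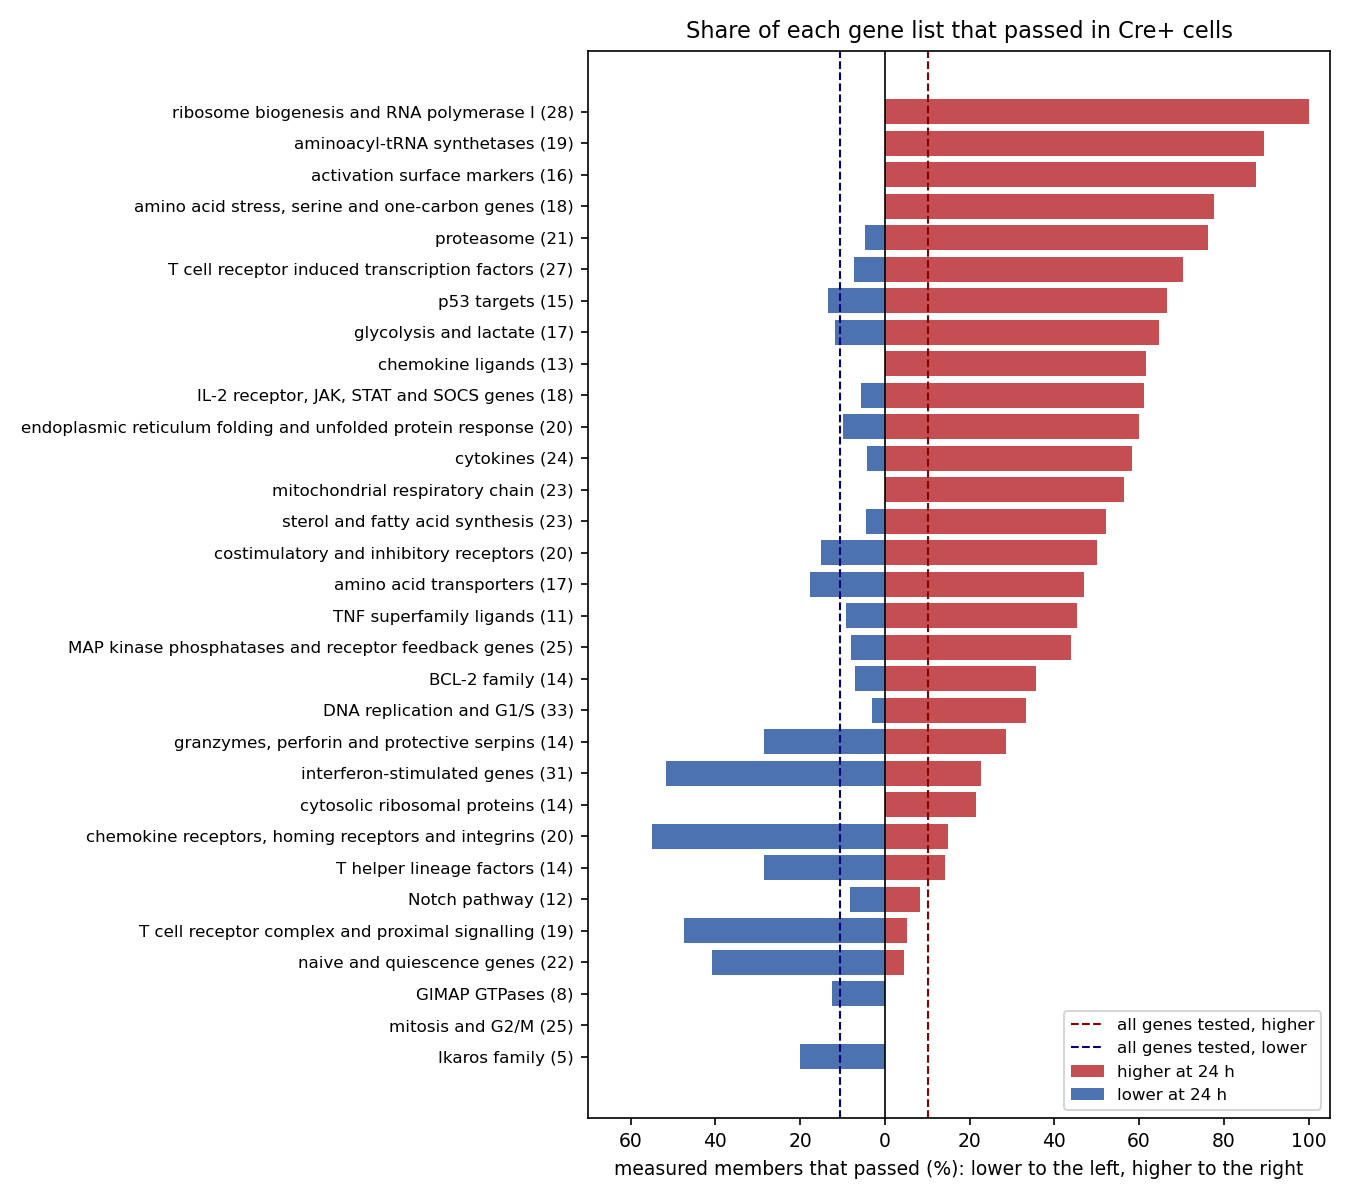
Share (%) of the measured members of each of 31 gene lists that passed as higher (red, to the right) or lower (blue, to the left) at 24 h in Cre+ cells, with the number measured in brackets; dashed lines are the shares over all genes tested, 10.1% higher and 10.6% lower. Ribosome biogenesis (28 of 28) and tRNA synthetases (17 of 19) have the highest shares of rising members, and no mitosis gene passed.

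Genes for making ribosomes and charging tRNA rose with few exceptions. All 28 measured genes of ribosome biogenesis and RNA polymerase I passed upward, with a median change of 1.30 and a range of 0.68 to 1.84, and 25 to 28 passed in the fits that left out 1 array. Gnl3, which encodes nucleostemin, read 7.18, 7.08 and 7.17 and then 9.08, 8.47 and 9.39, a 3.58-fold rise (adjusted p = 0.000338). The nucleolar protein gene Ncl rose by 1.45 ± 0.25 and the polymerase subunit gene Polr1b by 1.56 ± 0.23. The list mean was 8.63, 8.03 and 8.78 on activated arrays 1, 2 and 3, against 7.19 to 7.23 at rest, so array 2 rose least. Genes of the ribosomal proteins were different: 3 of 14 rose (1 without resting array 1 or activated array 1) and the median was 0.26. Another 10 of that list were not analysed here.

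Of 19 aminoacyl-tRNA synthetase genes, 17 rose and none fell, with a median change of 1.29. Gars and Aars, for glycine and alanine, rose by 1.71 ± 0.10 and 1.84 ± 0.15. The amino acid supply genes that the stress factor ATF4 is known to control went with them: 14 of 18 genes of amino acid stress, serine and one-carbon metabolism rose and none fell, with a median of 1.65. Asns, asparagine synthetase, read 4.09, 4.32 and 4.22 and then 8.45, 8.95 and 7.73, a rise of 4.16 ± 0.30 (17.9-fold, adjusted p = 3.75e-06). The serine enzyme gene Psat1 rose by 2.40 ± 0.16 and the mitochondrial one-carbon genes Shmt2 and Mthfd2 by 2.23 and 2.28. Atf4 rose by 1.11, while its partner genes Ddit3 and Trib3 had means of 6.82 and 6.60 at 24 h and did not pass.

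Of 17 amino acid transporters, 8 rose (47.1%) and 3 fell (17.6%), against 10.1% and 10.6% of all genes. Only 1 fell without resting array 3 or activated array 1 or 3. Slc7a5, the light chain of the large neutral amino acid transporter, went from 7.61, 7.57 and 7.60 to 10.10, 10.07 and 9.80, a 5.26-fold rise (adjusted p = 1.57e-06), and its heavy chain gene Slc3a2 rose by 1.32. The glycine transporter gene Slc6a9 rose by 3.49 ± 0.55 (4.12 without activated array 3, where it read 5.64 against 7.42 and 7.59). Slc43a2, another neutral amino acid transporter, fell by 1.53 ± 0.13.

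Glycolysis genes rose in 11 of 17 and fell in 2. Hk2, the inducible hexokinase, read 4.59, 4.73 and 4.57 and then 8.35, 7.42 and 8.82, a rise of 3.57 ± 0.33 (11.8-fold, adjusted p = 2.78e-05). The enzyme gene Tpi1 rose by 2.31, the glucose transporter gene Slc2a1 by 1.23 and the lactate transporter gene Slc16a1 by 1.95. The lower members were Pdk1, whose product inhibits pyruvate dehydrogenase (-1.50 ± 0.20), and the transporter gene Slc2a3 (-0.38). Slc2a3 did not pass without any 1 of the arrays other than activated array 2. Sterol and fatty acid synthesis had 12 of 23 genes higher and 1 lower. Cyp51, of the sterol branch, rose by 1.77 ± 0.30 and Fasn, fatty acid synthase, by 1.34 ± 0.25, whereas the desaturase gene Scd1 fell by 1.27 ± 0.26.

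Protein turnover and folding genes rose by smaller amounts. Of 21 proteasome genes, 16 passed upward, with a median change of 0.87, and the immunoproteasome subunit gene Psmb10 passed downward (-0.68). Psmd1 led with 1.30 ± 0.22. Of 20 genes for folding in the endoplasmic reticulum, 12 rose, among them the chaperone gene Hspa5 (0.83 ± 0.13) and the stress factor gene Xbp1 (1.18 ± 0.14). Dnajb9 and Dnajc3 were lower (-0.55 and -0.35). Neither passed without resting array 1 or 3, Dnajb9 did not without activated array 3, and Dnajc3 did not without activated array 1 or 2. In the respiratory chain 13 of 23 genes passed upward, with a median of 0.47, but the count was 3 to 5 without any 1 of the arrays other than activated array 2, and 14 without that one. Cox5a led with 0.96.

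Cell cycle genes depended on the array. Of 33 genes of DNA replication and the G1 to S transition, 11 passed upward and 1 downward, with a median change of 1.29. The list mean was 6.22 to 6.41 at rest and 7.47, 6.68 and 8.39 on activated arrays 1, 2 and 3. Without activated array 2, 23 passed upward, and without array 3, 5; leaving out activated array 1 or any 1 resting array gave 6. Without array 3 of both activated groups, which also removes the third Cre- array from the shared variance, 24 passed upward and 2 downward, and with array weights 26 and 2. Cdk6, a kinase of the G1 phase, rose by 2.13 ± 0.20 with readings of 9.27, 8.87 and 9.64. Mcm5 and Mcm2, parts of the replicative helicase, rose by 1.89 ± 0.40 and 1.47 ± 0.32, with array 3 highest and array 2 lowest for both. Ccnd1 fell by 1.62 ± 0.29, while its relative Ccnd2 rose by 0.92. The B cell marker mean and this list ranked the activated arrays in the same order, and the part of B cells in it was not tested.

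No mitosis gene passed, and none reached an unadjusted p under 0.05 in limma. Without array 3 of both activated groups 2 passed upward and 4 downward, and with array weights 2 passed upward. Over 25 genes of mitosis and the G2 to M transition, the median change was 0.58, and it was 1.05 without activated array 2 and -0.08 without activated array 3. The list mean was 5.78, 5.20 and 7.43 on activated arrays 1, 2 and 3, against 5.44 to 5.66 at rest. Array 3 was the only one more than 1 log2 unit above the resting arrays. The mitotic kinase gene Cdk1 read 6.23, 5.43 and 8.14 at 24 h and 5.04 to 5.16 at rest (adjusted p = 0.237). Mki67, the proliferation marker Ki-67, read 7.42, 7.17 and 9.60 against 7.66 to 7.82, so 2 of 3 activated arrays were below every resting one (adjusted p = 0.827).

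**Figure D3:**
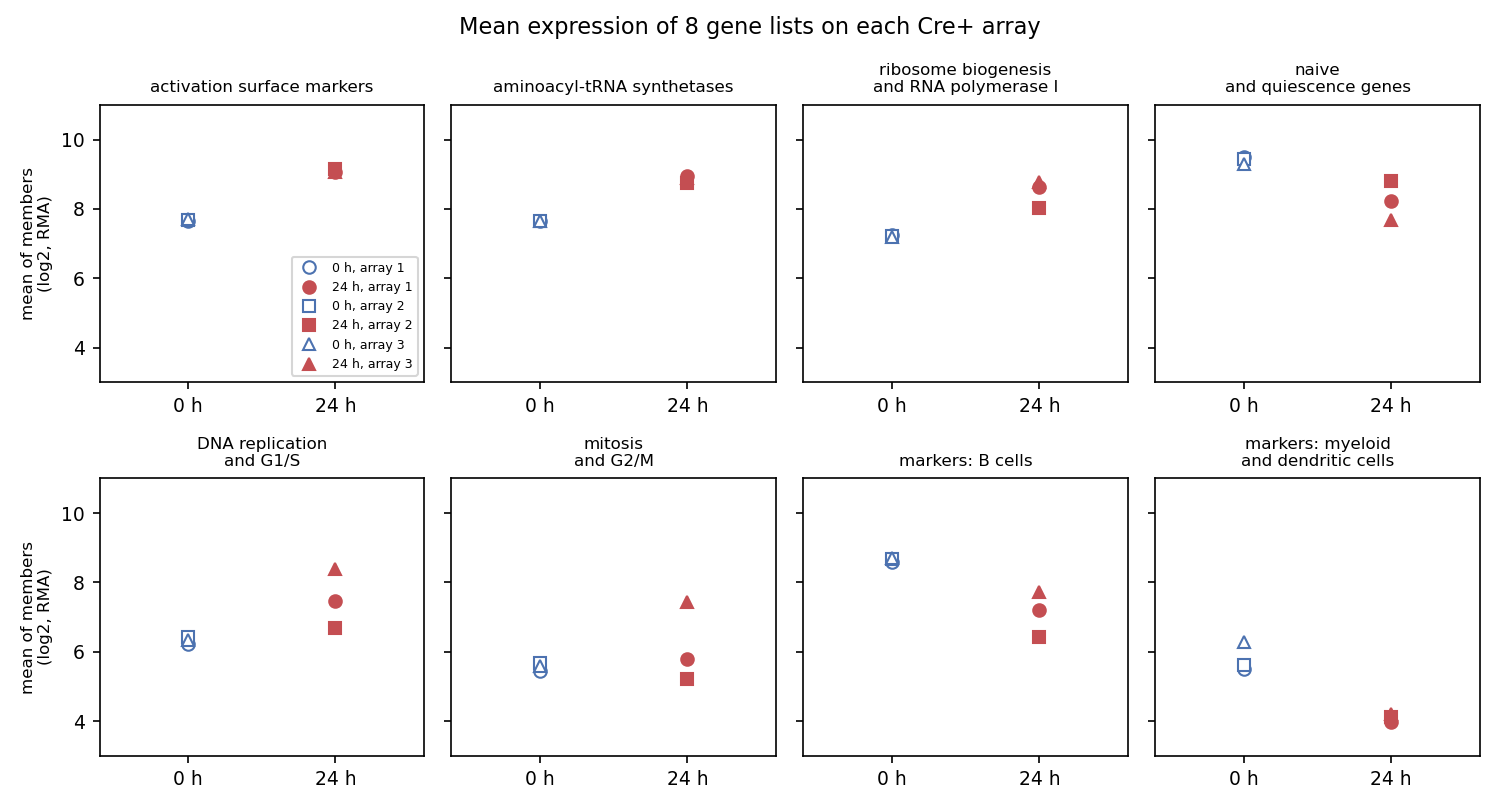
Mean expression (log2, RMA) over the measured members of 8 gene lists on each Cre+ array; open blue symbols are resting arrays and filled red symbols activated arrays, with a symbol shape for each array number. Activation markers sit at 9.06 to 9.14 on all 3 activated arrays, while mitosis genes range from 5.20 to 7.43 and B cell markers from 6.44 to 7.73.

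The p53 target Cdkn1a, which encodes the cell cycle inhibitor p21, went from 4.82, 4.69 and 4.59 to 9.37, 8.90 and 9.46, a rise of 4.55 ± 0.25 (23.3-fold, adjusted p = 5.40e-07). In its list 10 of 15 rose and 2 fell (1 fell without any 1 of the arrays other than activated array 2). Gadd45b, also an NF-kappaB target, rose by 3.00 ± 0.20, and Sesn1 fell by 1.74 ± 0.25. Mdm2, a classic target of p53, had a mean of 7.94 at 24 h and 7.67 at rest and did not pass. In the BCL-2 family 5 of 14 rose, 2 without resting array 1 or activated array 1 and 3 without activated array 3. The survival genes Bcl2l1, which encodes BCL-XL, and Bcl2a1b rose by 2.54 ± 0.25 and 1.94 ± 0.21, and the latter belongs to a set of near-identical genes that an array may not separate. The member that fell was Bmf, a death-promoting gene (-0.71), which did not pass without resting array 1 or 3 or activated array 3.

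Interferon-stimulated genes moved in both directions: 16 of 31 fell and 7 rose, with a median change of -0.71. The falling members included antiviral genes that type I interferon induces. Oas2, an antiviral synthetase, read 9.41, 9.21 and 9.12 and then 6.96, 6.52 and 6.11, a drop of 6.59-fold (adjusted p = 8.60e-06). Ddx58, the sensor RIG-I, read 9.06, 8.96 and 9.01 and then 6.78, 6.66 and 6.65, a drop of 4.98-fold (adjusted p = 2.21e-06). The groups of both genes were more than 2 log2 units apart. Irf7, the factor that amplifies the interferon response, fell by 1.70 ± 0.19 and Rtp4 by 1.98 ± 0.21. Rising members included genes of the response to interferon gamma: the GTPase genes Gbp2, Igtp and Irgm1 rose by 2.58 ± 0.20, 0.94 ± 0.18 and 0.84 ± 0.12, and Cxcl10 by 2.04 ± 0.28. The count of rising members was 4 without resting array 1 or 2. Irf7 and several of the falling genes are also expressed by plasmacytoid dendritic cells, whose marker Siglech fell by 3.94 ± 0.40.

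Markers of other blood cells were among the largest decreases. Of the 20 ranked, Itgam and Siglech are on the myeloid and dendritic list and Cr2 and Cd79a on the B cell list, and Fcmr, Cd180, Pld4 and Jchain are also known from B cells, plasma cells or dendritic cells. Cr2, complement receptor 2, read 7.00, 6.80 and 6.96 and then 3.35, 3.34 and 3.66, a drop of 11.1-fold (adjusted p = 2.47e-07). Cd79a, part of the B cell receptor, read 9.53 to 9.60 at rest and 6.06, 5.46 and 7.51 at 24 h, a drop of 9.25-fold (adjusted p = 0.000828). Other B cell markers held up better: Ms4a1 (CD20) read 6.81, 5.70 and 7.85 at 24 h against 8.22 to 8.38 and did not pass, and Pax5 read 5.97, 4.48 and 7.15 against 6.45 to 6.91. Fcmr, the receptor for IgM, fell by 3.92 ± 0.20. Siglech was highest on resting array 3 (8.79 against 6.89 and 7.12) and had a change of -3.35 without it; Jchain behaved alike (7.72 against 5.53 and 5.64; -3.93, or -3.22 without that array). Pld4, Cd180, Klk1 and Pltp fell by 4.26, 3.86, 4.80 and 3.21 on the log2 scale; without activated array 3, which was the highest of the 3 for each, the changes were -4.97, -4.65, -5.92 and -3.82, and for Klk1 the change was -4.13 without activated array 2. Ifi208, of an interferon-inducible gene family, fell by 4.28 ± 0.22 on the log2 scale and read 2.08 at 24 h. Rnase6, Ceacam1, Slc28a2b and the tryptophan pathway gene Kmo fell by 3.20, 3.12, 3.11 and 2.99.

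Itgam, the integrin CD11b of myeloid cells, read 8.74, 8.47 and 8.28 at rest and 4.30, 4.59 and 3.80 at 24 h, a drop of 19.3-fold (adjusted p = 5.22e-07). In Cre- cells it read 6.23, 5.42 and 5.65 at rest, below all 3 resting Cre+ arrays, and the change was -2.24. The myeloid markers Csf1r and Adgre1 read 5.99 and 4.72 at rest in the same Cre+ samples, and fell by 1.92 and 1.44. At rest the mean of the 15 myeloid and dendritic markers was 5.49 to 6.29 in Cre+ and 5.47 to 5.85 in Cre- cells. Which cells the Itgam reading came from was not tested.

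Dtx1 and Cd7, known from T cells, were among the 20 largest decreases. Dtx1, a Notch target that is known to restrain T cell activation, read 10.18, 10.11 and 10.12 at rest and 6.62, 6.63 and 6.42 at 24 h, a drop of 11.9-fold and the smallest adjusted p among the named genes (1.57e-08). The groups were more than 3 log2 units apart while the readings within each differed by at most 0.21. Cd7, a surface glycoprotein of T cells, fell by 3.55 ± 0.54. Rasgrp2, an exchange factor for the GTPase Rap1, fell by 3.26 ± 0.60 (-3.89 without activated array 2 and -2.61 without array 3). Eya2 and Slc16a5 fell by 3.36 ± 0.24 and 3.33 ± 0.22. Elsewhere in the Notch list of 12 genes, Rbpj, the DNA-binding partner of Notch, rose by 0.83 ± 0.20, a call lost without resting array 3 or activated array 1, and Dtx1 was the only other gene to pass (2 passed downward without activated array 2 or 3, and 2 upward without array 3). In the 8-gene GIMAP family of lymphocyte GTPases, Gimap4 passed (-0.94). The GIMAP count was 4 without activated array 2 and 0 without any other single Cre+ array. The Notch shares were 8.33% higher and 8.33% lower, and the GIMAP share was 12.5% lower. Over all genes 10.1% were higher and 10.6% lower, so the counts of these 2 lists are near the general share. The GIMAP changes were nevertheless all negative, from -0.94 to -0.15, with a median of -0.58. With array weights 6 of the 8 passed downward.

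**Figure D4:**
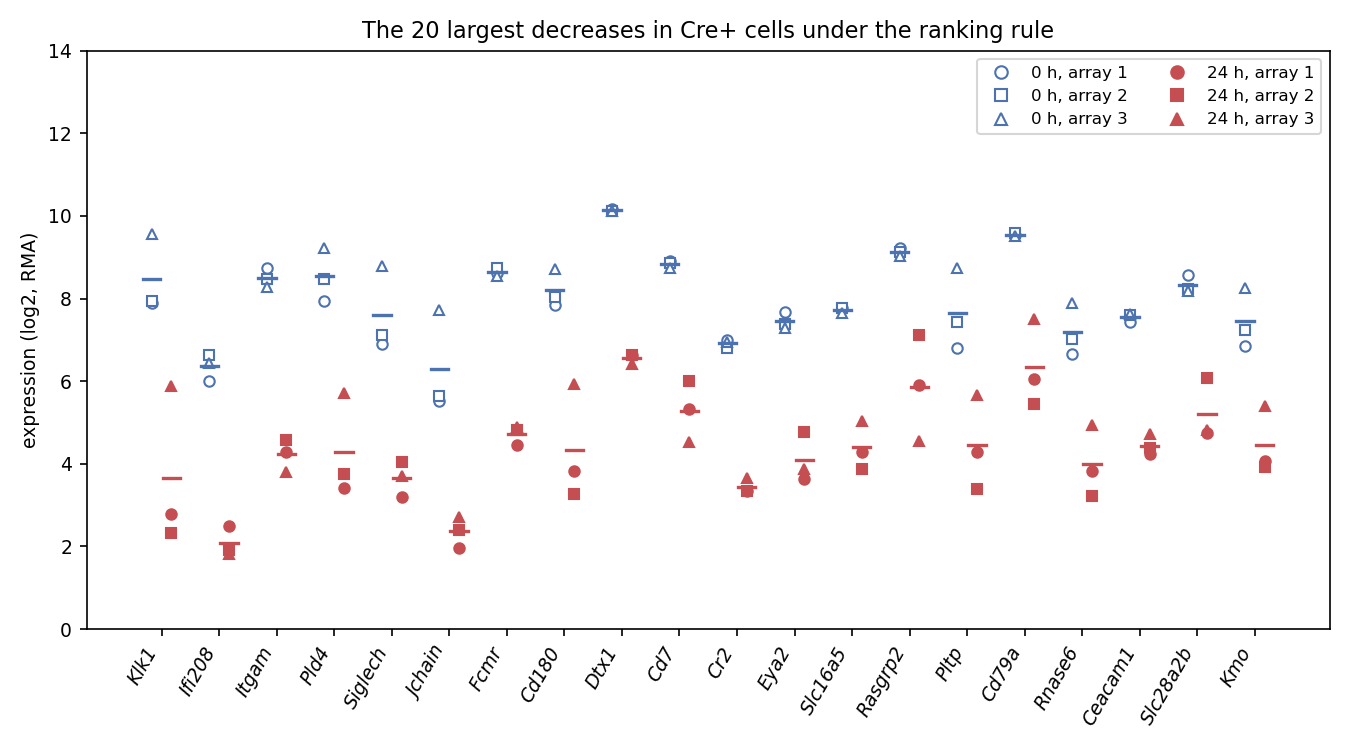
Expression (log2, RMA) of the 20 genes with the largest decreases in Cre+ cells among those that passed, had groups that did not overlap and averaged at least 6 at rest; symbols as for the cytokine plot. Dtx1 shows readings within 0.21 in each group, whereas Klk1, Pld4 and Siglech range over more than 1 log2 unit at rest.

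Among the 20 largest increases were also genes on none of the lists. Crabp2, a carrier of retinoic acid, read 4.03, 4.10 and 3.26 and then 8.92, 8.07 and 9.09, a rise of 4.89 ± 0.40 (29.7-fold, adjusted p = 1.11e-05). Stra6, a receptor for retinol uptake, read 4.84, 5.28 and 4.86 and then 9.48, 7.38 and 9.63, a rise of 3.84 ± 0.54 (14.3-fold, adjusted p = 0.000520), or 4.57 without activated array 2. Both genes belong to vitamin A handling. Bcat1, which breaks down branched-chain amino acids, rose by 3.90 ± 0.19. Pros1, which encodes the anticoagulant protein S, rose by 3.79 ± 0.20, Lad1 by 3.81 ± 0.24, Ccdc141 by 3.54 ± 0.34 and the kinase gene Plk2 by 3.54 ± 0.30.

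Cre- cells gave a response of similar extent. Their arrays share no sample with those of Cre+ cells. Both responses use the same estimate of each gene's spread, so the calls are not independent. In Cre- cells 4287 genes passed (18.5%), 2177 higher (9.39%) and 2110 lower (9.10%). With the 6 Cre- arrays alone the count was 3201, and with the 6 Cre+ arrays alone it was 4548 for the Cre+ response. Of the genes that rose in Cre+ cells, 1752 also passed upward in Cre- cells, which is 74.7% of the Cre+ calls and 80.5% of the Cre- calls. For falling genes the shared number was 1635, or 66.8% and 77.5%. Across all genes the 2 responses correlated at 0.89, a description over genes, which are not independent. The median Cre- change was 0.73 for genes rising in Cre+ cells, whose own median was 0.82, and -0.69 for genes falling in them, whose own median was -0.82.

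A test of the difference between the responses, Cre+ minus Cre-, passed for 2 genes (0.00863%), both larger in Cre+ cells. At an unadjusted p under 0.05 there were 1089 of 23185, no more than that threshold passes when no gene differs. Some other fits were above that level, with 3541 under array weights. The count of genes passing after adjustment was 25 without activated Cre+ array 2, 5 without activated Cre+ array 3 and 8 without activated Cre- array 3. Il3 rose by 5.27 in Cre+ cells and by 1.70 in Cre- cells, where it read 2.68, 2.72 and 2.81 at rest and 4.15, 4.24 and 4.92 at 24 h. The difference was 3.57 ± 0.36 (adjusted p = 0.00556). Ccn4, a secreted matricellular protein known as a target of Wnt signals, read 4.32, 4.39 and 4.67 and then 7.01, 6.76 and 6.81 in Cre+ cells. In Cre- cells it read 3.96, 3.99 and 4.06 and then 4.29, 4.59 and 4.60, so the rises were 2.40 and 0.49 and the difference was 1.91 ± 0.18 (adjusted p = 0.00556). For both genes all 3 activated Cre+ readings lay above all 3 activated Cre- readings. The genes were picked by the test on these same readings, so that separation is no further support.

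Other genes with large gaps did not pass that test. The rise of Ifng was 5.34 in Cre+ and 3.48 in Cre- cells (difference 1.86, adjusted p = 0.0881), that of Csf2 4.06 and 1.42 (2.64, adjusted p = 0.221), and that of Stra6 3.84 and 0.46 (3.38, adjusted p = 0.336). Itgam fell by 4.27 and by 2.24 on the log2 scale (difference -2.03, adjusted p = 0.125). Ccl9 rose by 2.05 ± 0.40 in Cre+ cells and had a change of 0.03 in Cre- cells (difference 2.02, adjusted p = 0.712). Genes that passed in opposite directions numbered 3. One is Ifitm3, a membrane protein that blocks virus entry, at 1.13 in Cre+ and -1.18 in Cre- cells (difference 2.31, adjusted p = 0.325); its Cre+ call was lost in 5 of the 6 fits without 1 Cre+ array, all but that without activated array 2. Cyp3a44 and Vmn2r93, named here after their values were seen, are the others, with Cre+ changes of -0.50 and -0.33.

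**Figure D5:**
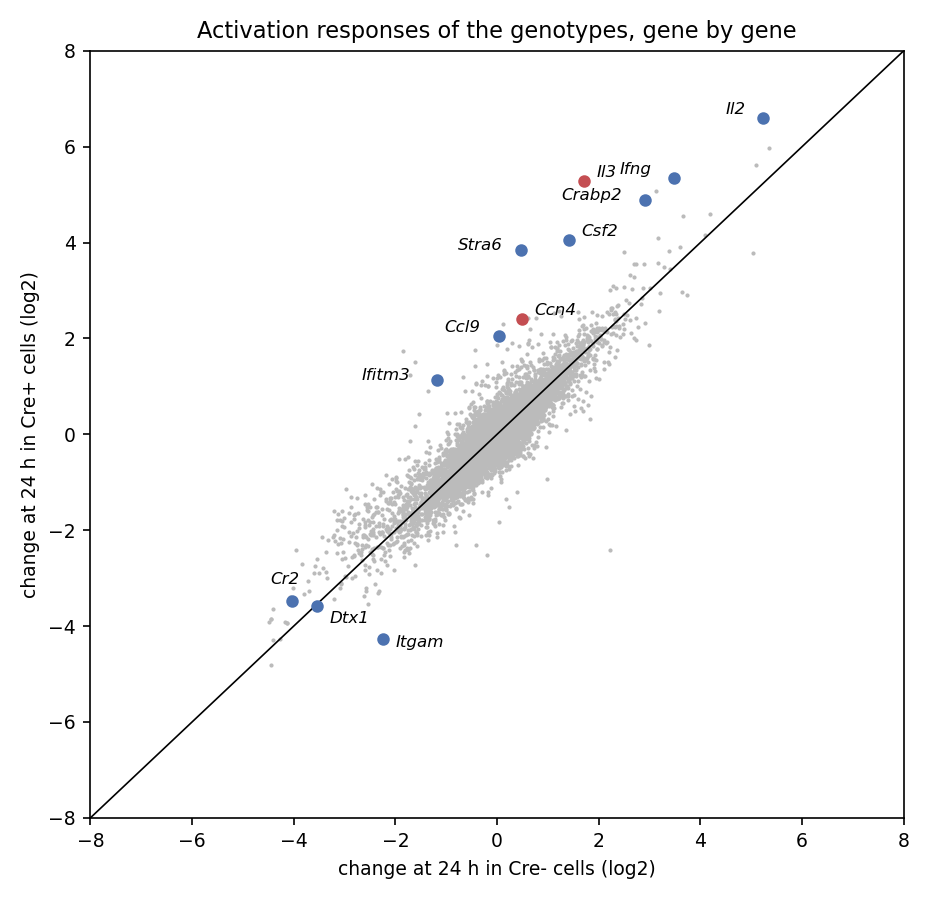
Change at 24 h (log2) in Cre+ cells against that in Cre- cells for each of the 23185 genes, with the line of equal change; red points are the 2 genes whose responses differed in the test, blue points are 10 other genes named in the text. Il3 (5.27 against 1.70) and Ccn4 (2.40 against 0.49) lie above the line, and Itgam (-4.27 against -2.24) below it.

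Some of the strongest responses of Cre+ cells were close in size in Cre- cells and others were not. Dtx1 changed by -3.58 and -3.55, Asns by 4.16 and 4.10, Gzmb by 4.60 and 4.18, and Tbx21 by 2.36 and 2.34. Il2 rose by 6.59 and 5.22, Ccl1 by 5.07 and 3.12, Crabp2 by 4.89 and 2.91 and Rgs16 by 4.10 and 3.16, while Pros1 rose by 3.79 and 5.03. None of these 5 differences passed (adjusted p = 0.739, 0.705, 0.729, 0.771 and 0.328). Over the lists, none but the cytokines, through Il3, held a member that passed the test of the difference. The median changes in Cre+ and Cre- cells were 1.34 and 1.32 for activation markers, 1.30 and 1.20 for ribosome biogenesis, -1.19 and -1.12 for naive genes and -0.71 and -0.50 for interferon-stimulated genes. B cell markers were further apart, with medians of -1.47 and -2.33, and 11 and 13 of 14 passing downward. At 24 h the B cell marker mean lay between 6.44 and 7.73 in Cre+ cells and between 5.84 and 7.04 in Cre- cells, and the part of that in the differences between genotypes was not tested.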

How the data were processed

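The deposited table holds log2 expression values of 25206 probe sets on 12 mouse gene arrays, which the authors made with RMA in affy 1.36.1 under R 2.15.1, per the submitters' processing notes. The chip definition, with its build, is not given in the sources used here. The 23185 probe sets listed with a single gene were kept; the other 2021 were left out. All 12 arrays entered a linear model in limma 3.58.1 (R 4.3.3), with a term for each group and 3 contrasts: activation in Cre+ cells, activation in Cre- cells, and their difference. Adjusted p-values are Benjamini-Hochberg over all 23185 genes, two-sided, with a threshold of 0.05. The fitting script was tested on simulated data. With 3 arrays in a group, their number limits the precision.

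Named genes are members of 31 gene lists (606 genes, 566 measured) or of 8 marker lists, Ikzf1 and the genes that passed for the difference. Also named are the 20 strongest changes in each direction. These were ranked among genes that passed, had groups without overlap and averaged at least 6 in the higher group. Unnamed and predicted genes, pseudogenes, small RNAs and receptor segments were left out of the ranks. List members that were not measured were not analysed here. The lists and members were chosen with earlier results of these data known. Motifs were searched on both strands of RefSeq promoters of build GRCm38.p6.

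The alternatives were replicate blocks, the 6 arrays alone, other moderation, array weights, filters on dim genes, all probe sets, 3 other scalings, a 2-fold minimum, sex as a covariate and each array left out. The labels do not say whether a replicate number links a resting and an activated sample. By sex-linked genes the Cre+ samples numbered 1 differed in sex, and those numbered 2 and 3 did not. In Cre- cells the samples numbered 3 differed in sex, male at rest and female at 24 h, and those numbered 1 and 2 did not. Deviations of same-numbered resting and activated Cre+ arrays from their group means correlated at -0.05, 0.03 and 0.13. For unlike numbers the range was -0.15 to 0.13, so pairing of Cre+ numbers 2 and 3 stays undecided.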

Additional observations from a re-analysis of the deposited data

Results flagged for a closer look

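The difference between the activation responses, Cre+ minus Cre-, passed limma's test with Benjamini-Hochberg adjustment for Il3 (3.57 on the log2 scale, adjusted p = 0.00556) and for Ccn4 (1.91, adjusted p = 0.00556). All 3 activated Cre+ readings were above all 3 activated Cre- readings for both genes, which were picked by the test on these same readings.

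Among the 2021 probe sets that were left out because no single gene is listed for them, 288 passed for activation in Cre+ cells. Of these, 154 were higher and 134 lower. They came from a fit of all probe sets. This is a smaller share than the 20.7% of the 23185 tested genes that passed.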

How the results depend on the processing

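The 4795 genes that passed for activation in Cre+ cells became 8292 with array weights and 1683 with a 2-fold minimum. Leaving out 1 Cre+ array gave 3148 to 5472. For Cre- cells the 4287 genes became 1548 with the 2-fold minimum, and leaving out 1 Cre- array gave 2877 to 4391. The other settings moved these counts by less than 1.5 times. The 2 genes that passed for the difference became 143 with array weights, 4 with sex as a covariate and 11 without array 3 of both activated groups. None passed when only genes with a mean of at least 5 or 6 over all arrays were tested. At an unadjusted p under 0.05 in limma those fits held 376 of 9444 and 246 of 7192 genes. Neither number is more than that threshold passes when no gene differs. Neither Il3 nor Ccn4 was bright enough to enter those fits. Leaving out 1 of the 12 arrays gave 2 to 25, the highest without activated Cre+ array 2. Over the settings that tested them, the difference was 3.34 to 3.82 for Il3 and 1.81 to 2.01 for Ccn4.

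The replicate number as a block within each genotype gave 4052 genes for Cre+ cells, 3628 for Cre- cells and 0 for the difference. For the difference, 1011 of 23185 genes had an unadjusted p under 0.05 in limma, again no more than that threshold passes when no gene differs. The adjusted p in that limma fit was 0.18 for both Il3 and Ccn4. The block within each genotype joins samples of unlike sex for number 1 of Cre+ cells and number 3 of Cre- cells. It therefore does not pair samples of the same animal there. A block per number shared by both genotypes gave 5082, 4692 and 5.

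Of 193 named genes that passed, 151 kept the call in every setting that tested them and 42 lost it in at least 1. The settings include the 2-fold minimum, where any gene that changed by less than 2-fold loses its call whatever its p. No named gene that passed changed sign. Mki67, Gata3 and Cd8a had not passed, and their changes took both signs: leaving out 1 Cre+ array gave -0.45 to 0.76 for Mki67, -0.11 to 0.035 for Gata3 and -0.29 to 0.18 for Cd8a. Without array 3 of both activated groups the changes were -0.45, 0.035 and 0.12, and for Mki67 the change was -0.11 with array weights. Readings near the array medians limit the folds of genes that were dim in 1 group.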
